A study of Homo sapiens with 6 samples.

Results

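Ribosome biogenesis factors are the proteins that transcribe, modify, cut and fold the rRNA precursor in the nucleolus and build it into the 2 ribosomal subunits. Here they are 32 named genes, chosen by symbol for this role, with earlier results of these data known. All 32 were found among the 16536 genes of the deposited table, and all 32 passed the filter on low values. They were measured by RNA sequencing in SCC4, an established human cell line that came from a tongue cancer of squamous type. The 6 libraries form 2 groups of 3: parental 1 to 3, adherent SCC4 cells, and sphere 1 to 3, SCC4 cells selected by suspension culture and called cancer stem cells by the submitters. The labels give no further treatment, genotype or time for either group, both groups are the same cell line, and how long the spheres were grown is not stated. Nothing in the labels says that the replicates came from separate cultures, and the p-values may therefore reflect technical spread alone.

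As background, RNA polymerase I makes 1 long precursor that holds the large rRNAs of both subunits. Small nucleolar RNPs of the box C/D kind guide methylation of its riboses and those of the box H/ACA kind guide the change of uridine to pseudouridine. The small subunit processome, which contains the U3 snoRNP, folds and cuts the part that becomes the small subunit, and a separate chain of assembly factors, helicases and GTPases builds the large subunit. The transcription factor MYC, with its partner MAX, is known to bind the sequence CACGTG, called an E-box, and many genes of this group are described as MYC targets.

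The E-box was found in the promoter windows of many members. It was searched as CACGTG, which reads the same on both strands, in RefSeq windows (GRCh38.p14) from 250 bases before to 50 bases after the start of each gene, and 28 of the 32 members had a window. BOP1, RRS1, NOP58 and RRP12 had no window that was used here. The letters occurred in 14 of 28 members (50.0%), against 1323 of 10504 tested genes with a window (12.6%) and 39 of 140 other ribosome biogenesis factors with one. Members of the small subunit group held it in 7 of 10 windows, those of the large subunit group in 4 of 7, box H/ACA proteins in 2 of 4 and RNA polymerase I subunits in 0 of 3. Of 15 matches, 14 began between 20 bases before and 45 bases after the start. The positions of matches in other genes were not counted, so this place is not shown to be particular to the members. A match is a description of these letters and not a test of binding. Many genes of this group are described as MYC targets, so the share among members is not independent of the choice of list.

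The 9 stretches shown run from 100 bases before the start to 12 bases from it, 5′ to 3′ on the gene's strand. RRP9 at chr3:51941893-51942004 (minus strand), GNL2 at chr1:37595926-37596037 (minus strand) and GNL3 at chr3:52685932-52686043 (plus strand) are shown as members that were lower in sphere cells and hold the E-box. UTP20 at chr12:101280005-101280116 (plus strand) is shown as a member that was higher and holds it. WDR43 at chr2:28894567-28894678 (plus strand), FBL at chr19:39846368-39846479 (minus strand) and NOP10 at chr15:34343125-34343236 (minus strand) hold it and were not called as deposited. UTP15 at chr5:73565643-73565754 (plus strand), lower in sphere cells, and DKC1 at chrX:154762764-154762875 (plus strand) have no match in the whole window. Capitals mark CACGTG.
RRP9: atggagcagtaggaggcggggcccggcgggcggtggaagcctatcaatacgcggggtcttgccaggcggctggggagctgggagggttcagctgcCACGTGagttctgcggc
GNL2: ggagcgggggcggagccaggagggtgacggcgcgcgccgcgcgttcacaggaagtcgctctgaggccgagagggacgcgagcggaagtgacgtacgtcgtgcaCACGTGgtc
GNL3: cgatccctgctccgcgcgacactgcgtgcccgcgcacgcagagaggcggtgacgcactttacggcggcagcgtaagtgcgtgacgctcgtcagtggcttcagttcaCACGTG
UTP20: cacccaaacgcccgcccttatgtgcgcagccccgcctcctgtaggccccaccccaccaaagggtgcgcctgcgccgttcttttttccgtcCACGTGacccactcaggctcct
WDR43: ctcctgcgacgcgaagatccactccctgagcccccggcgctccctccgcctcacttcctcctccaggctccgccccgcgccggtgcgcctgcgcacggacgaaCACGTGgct
FBL: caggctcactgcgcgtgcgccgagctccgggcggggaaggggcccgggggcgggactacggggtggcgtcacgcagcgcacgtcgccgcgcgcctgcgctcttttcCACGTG
NOP10: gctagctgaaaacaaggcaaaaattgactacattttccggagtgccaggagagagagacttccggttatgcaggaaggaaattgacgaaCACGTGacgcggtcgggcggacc
UTP15: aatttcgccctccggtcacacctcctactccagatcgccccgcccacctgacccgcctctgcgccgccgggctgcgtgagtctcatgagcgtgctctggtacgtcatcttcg
DKC1: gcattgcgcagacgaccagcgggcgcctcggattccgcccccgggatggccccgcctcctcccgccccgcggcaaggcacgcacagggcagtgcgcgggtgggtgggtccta
The E-box stood in 4 of the 5 members with a window that were called lower, 1 of the 2 called higher and 9 of the 21 not called. With so few called members in windows, these shares were not tested against each other.

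Of the 32 ribosome biogenesis factors, 22 did not pass the test between parental and sphere cells, and the 3 largest called changes were falls in the small subunit genes RRP12, RRP9 and UTP15. RRP12, RRP9, UTP15 and NOP58 were lower in spheres by 0.33 to 0.78 on the log2 scale, and each kept this call in every alternative processing that was run. In the fit with limma over 15034 genes, 8 of 32 members fell (25.0%), against a background of 22.9% of all genes tested. A further 2 members rose (6.25%), against 25.8% of all genes, with calls made at an adjusted p of 0.05. The 8 were RRP12, RRP9, UTP15, NOP58, RRS1, GNL3, NOP2 and GNL2, and the 2 were UTP20 and PPAN. The share of falls thus stood near that of all genes, and the share of rises below it; no test of the list was made. All fold changes are differences of log2(value + 1), which understate the change of low genes. The median over members was -0.03, against 0.04 over all genes tested. DKC1 alone reached a 2-fold difference, and it was not called.

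The scale of the columns sets where 0 lies. The deposited columns, named as TPM, summed to between 885258 and 1134102 units, and low values stood on steps of 0.886 to 1.14 units that differ by library. Dividing each column by its own step, called here undoing the authors' scaling, moved the median over all genes from 0.04 to -0.10 and that over members from -0.03 to -0.19. Relative to all genes, the member median was -0.07 as deposited and -0.09 with the scaling undone. In that scaling 0 members rose, against 15.2% of all genes, and 7 fell, against 25.1%. WDR43 joined the falls, at an adjusted p of 0.0257 in limma, while GNL2, GNL3, UTP20 and PPAN were no longer called. At an unadjusted limma p below 0.05, 1 member was higher and 12 lower in that scaling, against 3 and 9 as deposited. The share of all genes at this cut was not counted, so these counts are not a result about the members.

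Without a test, the groups can be compared by whether their 3 libraries overlap. As deposited, all 3 sphere values lay below all 3 parental values for 12 members (37.5%), against 27.5% of all genes tested. They lay above for 4 members, NHP2, NCL, UTP20 and PPAN (12.5%), against 37.6% of all genes, and the groups overlapped for 16. With the scaling undone and no rounding to whole steps, 16 members lay below, against 33.0% of all genes. Among them, POLR1A, POLR1C and WDR12 had a parental and a sphere library at the same whole number of steps, which is a tie. The 1 member above was UTP20, against a share above of 24.4% of all genes, and it was tied in the same way. Ties were not removed from the shares of all genes, so these shares and counts are approximate.

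**Figure D1:**
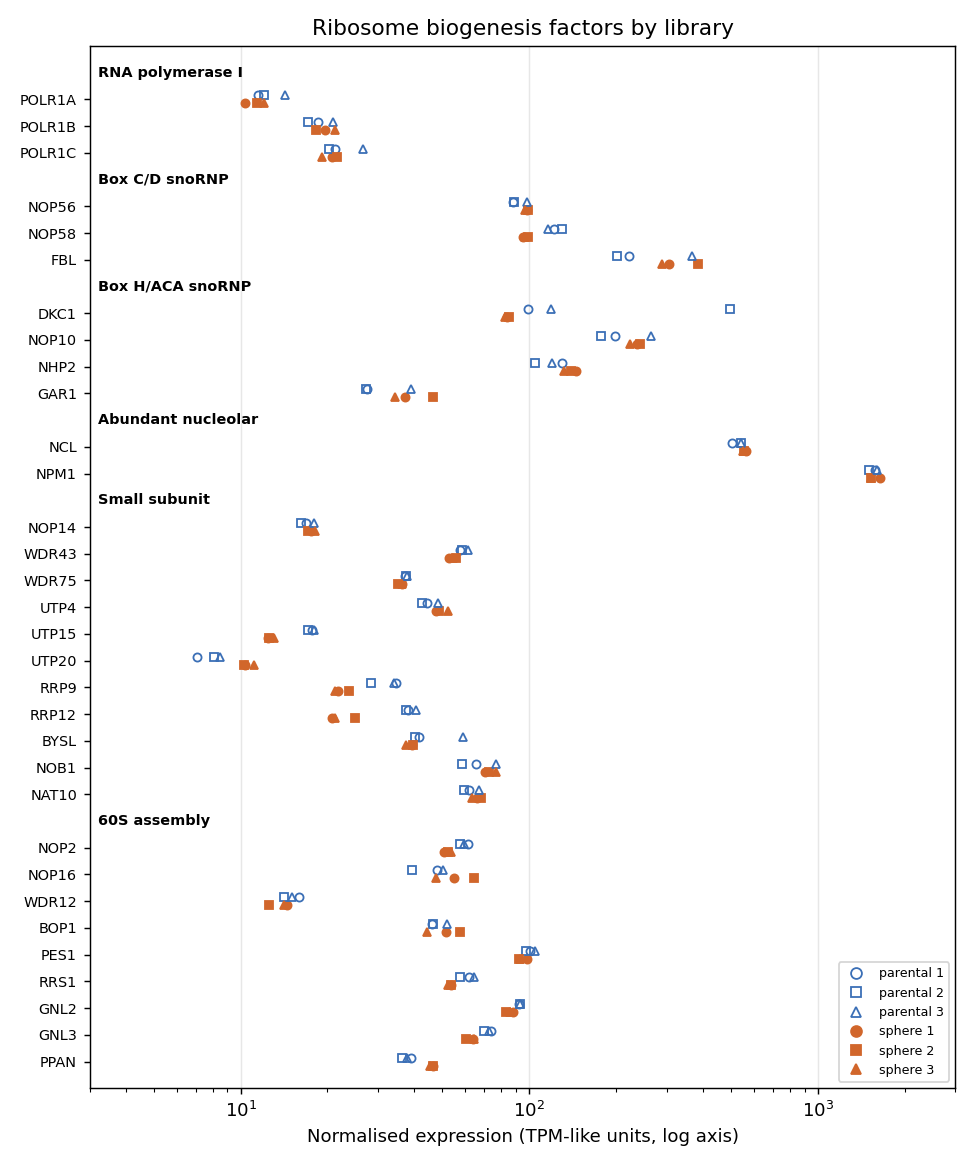
Normalised expression of the 32 members in each library, in TPM-like units on a log axis, grouped by role; open blue symbols are parental and filled orange symbols sphere libraries, and the symbol shape is the replicate number. Groups are apart for RRP12, RRP9, UTP15 and NOP58, and parental 2 stands at 495 units for DKC1, above the 5 other libraries.

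Levels spanned 2 orders of magnitude. In TPM-like units, which are read here as values per transcript length, NPM1 had the highest mean over the 6 libraries, 1562 units, followed by NCL at 543 and FBL at 295. NOP10 had 224 units, DKC1 161 and NHP2 129, so the snoRNP proteins were among the more abundant members. RNA polymerase I subunits stood at 11.9 to 21.5 units, and UTP20 was the lowest at 9.22. At these levels 1 step is 12.02% of the parental mean of UTP20, 5.37% of that of UTP15 and 0.398% of that of DKC1. The 32 members together made up 0.449%, 0.420% and 0.460% of all units in parental 1 to 3 and 0.405%, 0.367% and 0.396% in sphere 1 to 3. Without DKC1 these shares were 0.438%, 0.371% and 0.447% in parental and 0.397%, 0.359% and 0.388% in sphere libraries, so parental 2 then lay among the spheres. All these shares are of totals that include mitochondrially encoded genes. Those genes made up 16.7%, 16.1% and 15.4% of units in parental 1 to 3 and 19.6%, 18.6% and 20.3% in sphere 1 to 3. Member shares without mitochondrially encoded genes were not counted. In bulk RNA, fewer cells of a type and less RNA per cell cannot be told apart.

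None of the 3 RNA polymerase I subunits was called by limma, and 0 had an unadjusted p below 0.05. POLR1A, the largest subunit, had 11.5, 12.1 and 14.2 units in parental 1 to 3 and 10.3, 11.4 and 12.1 in sphere 1 to 3 (log2 fold change -0.15, SE 0.10, limma adjusted p 0.271). Its groups overlapped as deposited. With the scaling undone, parental 2 and sphere 3 stood at the same whole number of steps. POLR1B, the other large catalytic subunit, stood at 18.9 ± 1.85 units in parental and 19.7 ± 1.46 in sphere cells (SD, n = 3 each). POLR1C, a subunit that RNA polymerase I shares with RNA polymerase III, stood at 22.6 ± 3.41 and 20.5 ± 1.202 units. For POLR1B and POLR1C the limma adjusted p was 0.597 and 0.368. For POLR1C with the scaling undone, parental 2 and sphere 1 stood at the same whole number of steps.

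Among the box C/D proteins, NOP58 fell while its partners did not pass the test. NOP58 (ENSG00000055044), a core scaffold protein of these particles, had 121, 130.1 and 116 units in parental 1 to 3 and 95.1, 98.8 and 96.8 in sphere 1 to 3 (log2 fold change -0.33, SE 0.05, limma adjusted p 0.00266). Every sphere library lay below every parental one. NOP56, its homologous partner in the scaffold, had 87.7, 88.7 and 98.4 units in parental and 98.2, 98.8 and 96.8 in sphere libraries (0.10, adjusted p 0.186 in limma). Its sphere values were close together and parental 3 lay among them. FBL, fibrillarin, the methyltransferase itself, had 221, 202 and 365 units in parental and 305, 386 and 288 in sphere libraries (0.35, SE 0.25, adjusted p 0.287 in limma). Parental 3 stood above parental 1 and 2 and within the range of the spheres, and the groups overlapped. NOP56 and NOP58 both carry snoRNA genes in their introns. Whether the difference between NOP58 and NOP56 is itself larger than the spread was not tested.

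The 4 box H/ACA proteins gave no call in limma, and 1, NHP2, had an unadjusted p below 0.05. DKC1 (ENSG00000130826), dyskerin, the pseudouridine synthase, had 99.1, 495 and 119 units in parental 1 to 3 and 83.7, 85.2 and 82.7 in sphere 1 to 3. Parental 2 was far above the rest, while every sphere library lay below every parental one. The log2 fold change was -1.09, with a 95% interval from -2.58 to 0.39 and a limma adjusted p of 0.191. NHP2, an RNA-binding partner of dyskerin, had 129.6, 105 and 120.1 units in parental and 146, 139.7 and 132 in sphere libraries (0.24, SE 0.09, limma adjusted p 0.0654). Its groups did not overlap as deposited, and they did with the scaling undone. NOP10, the small protein that holds the core together, stood at 213 ± 45.8 units in parental and 234 ± 9.72 in sphere cells (adjusted p 0.428 in limma). GAR1, the remaining core protein, stood at 31.2 ± 6.69 and 39.3 ± 6.27 units (adjusted p 0.171 in limma). In both, parental 3 was the highest parental library, at 265 units for NOP10 and 38.9 for GAR1.

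Neither of the 2 abundant nucleolar proteins was called by limma or had an unadjusted p below 0.05. NCL, nucleolin, which binds the rRNA precursor and its chromatin, had 504, 541 and 542 units in parental 1 to 3 and 563, 554 and 552 in sphere 1 to 3 (0.07, SE 0.05, limma adjusted p 0.26). The sphere values lay just above the parental ones as deposited and overlapped them with the scaling undone. NPM1, nucleophosmin, a nucleolar chaperone, had 1577, 1501 and 1598 units in parental and 1646, 1526 and 1524 in sphere libraries (0.01, SE 0.07). Its interval ran from -0.16 to 0.17, its limma adjusted p was 0.944, and 45 annotated genes are named as its pseudogenes, whose reads the counting could have split.

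The small subunit group held the 3 steepest called falls. Of its 11 members, 3 were lower (27.3%, against 22.9% of all genes) and 1 higher (9.09%, against 25.8%). With the scaling undone, 4 were lower (36.4%, against 25.1% of all genes) and 0 higher, against 15.2%. RRP12 (ENSG00000052749), a repeat protein of pre-ribosomes known in yeast for export of the subunits, had 38.1, 37.3 and 40.7 units in parental 1 to 3 and 20.7, 24.9 and 21.2 in sphere 1 to 3. Every sphere value lay below every parental one, and the log2 fold change was -0.78 (SE 0.08, limma adjusted p 0.000568). RRP9 (ENSG00000114767), a protein specific to the U3 snoRNP, had 34.6, 28.2 and 34.1 units in parental and 21.7, 23.8 and 21.2 in sphere libraries (-0.52, SE 0.09, limma adjusted p 0.00512). Parental 2 was the lowest parental library and still above all spheres. UTP15 (ENSG00000164338), a subunit of the complex that joins the precursor while it is being transcribed, had 17.7, 17.1 and 18.0 units in parental and 12.4, 12.5 and 13.1 in sphere libraries (-0.44, SE 0.05, limma adjusted p 0.000662). The groups did not overlap. With the scaling undone the limma adjusted p of RRP12, RRP9 and UTP15 was 0.000931, 0.0134 and 0.0061.

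UTP20 (ENSG00000120800) moved the other way. This large scaffold protein of the processome had 7.04, 8.07 and 8.52 units in parental 1 to 3 and 10.3, 10.2 and 11.1 in sphere 1 to 3 (0.38, SE 0.08, limma adjusted p 0.0101). Sphere values lay above parental ones as deposited. With the scaling undone, parental 3 and sphere 2 stood at the same whole number of steps. The log2 fold change was then 0.24 and the limma adjusted p 0.0962. WDR43, WDR75 and UTP4, which belong to the same complex as UTP15, did not pass the threshold as deposited. WDR43 had 57.6, 58.5 and 61.5 units in parental and 52.7, 55.6 and 54.5 in sphere libraries (-0.12, limma adjusted p 0.0581, and -0.28 with 0.0257 with the scaling undone). WDR75 stood at 37.4 ± 0.321 and 35.9 ± 0.579 units (adjusted p 0.217 in limma), and UTP4 at 44.97 ± 3.002 and 49.6 ± 2.52 (adjusted p 0.125 in limma). For WDR43 and WDR75 the sphere libraries lay below the parental ones, and for UTP4 the groups overlapped.

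The remaining 4 genes of the small subunit group were not called. BYSL, bystin, had 41.5, 40.4 and 58.8 units in parental 1 to 3 and 39.3, 39.7 and 37.3 in sphere 1 to 3 (-0.25, SE 0.15, limma adjusted p 0.219). The spheres lay below all parental libraries, closely below 2 of them, and parental 3 stood apart. NOB1, the endonuclease that makes the last cut of the small subunit rRNA, stood at 66.9 ± 9.16 and 73.2 ± 3.198 units (adjusted p 0.314 in limma). NAT10, which acetylates that rRNA, stood at 62.9 ± 3.90 and 65.9 ± 2.29 units (adjusted p 0.367 in limma), and NOP14, a processome subunit, at 17.0 ± 0.928 and 17.6 ± 0.540 units (adjusted p 0.496 in limma). Groups overlapped for NOB1, NAT10 and NOP14.

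Of the 9 large subunit factors, 4 fell (44.4%, against 22.9% of all genes) and 1 rose (11.1%, against 25.8%). With the scaling undone 2 fell (22.2%, against 25.1%) and 0 rose, against 15.2% of all genes. NOP2 (ENSG00000111641), an rRNA methyltransferase, had 61.2, 57.5 and 59.6 units in parental 1 to 3 and 50.7, 52.2 and 53.4 in sphere 1 to 3 (-0.19, SE 0.04, limma adjusted p 0.0126). RRS1 (ENSG00000179041), which with RPF2 helps bring the 5S RNP into the precursor, had 62.1, 57.5 and 64.3 units in parental and 53.7, 53.4 and 52.4 in sphere libraries (-0.20, SE 0.05, limma adjusted p 0.0196). In both genes all spheres lay below all parental libraries. GNL3 (ENSG00000163938), nucleostemin, a nucleolar GTPase first described in stem cells, had 73.6, 69.6 and 72.8 units in parental and 64.1, 60.3 and 64.5 in sphere libraries (-0.19, SE 0.04, limma adjusted p 0.0146). GNL2 (ENSG00000134697), a related GTPase, had 92.2, 92.8 and 92.6 units in parental and 87.8, 83.0 and 85.7 in sphere libraries (-0.11, SE 0.04, limma adjusted p 0.044). These 2 also did not overlap, and with the scaling undone their adjusted p was 0.0501 and 0.0548 at larger falls of 0.35 and 0.27 on the log2 scale.

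PPAN (ENSG00000130810), a protein that in yeast is needed for early large subunit assembly, had 39.0, 36.3 and 37.8 units in parental 1 to 3 and 46.5, 46.6 and 45.4 in sphere 1 to 3 (0.28, SE 0.04, limma adjusted p 0.00223). Sphere values lay above parental ones as deposited. Undoing the scaling made the groups overlap, at a log2 fold change of 0.13 and a limma adjusted p of 0.318. PPAN lies on the same strand as a readthrough gene with P2RY11, between which the counting could split reads. The 3 proteins of the PeBoW complex, which acts on the large subunit precursor, were not called. PES1 stood at 101 ± 3.57 and 94.3 ± 3.34 units, BOP1 at 48.2 ± 3.37 and 51.3 ± 6.68, and WDR12 at 15.1 ± 0.932 and 13.7 ± 1.01, with limma adjusted p of 0.117, 0.54 and 0.214. NOP16, a large subunit factor, had 47.9, 39.3 and 50.2 units in parental and 54.8, 64.5 and 47.4 in sphere libraries (0.27, limma adjusted p 0.171). The groups of these 4 genes overlapped as deposited. With the scaling undone, all spheres of PES1 lay below all parental libraries. For WDR12, sphere 1 and sphere 3 then stood at the same whole number of steps as parental 2.

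**Figure D2:**
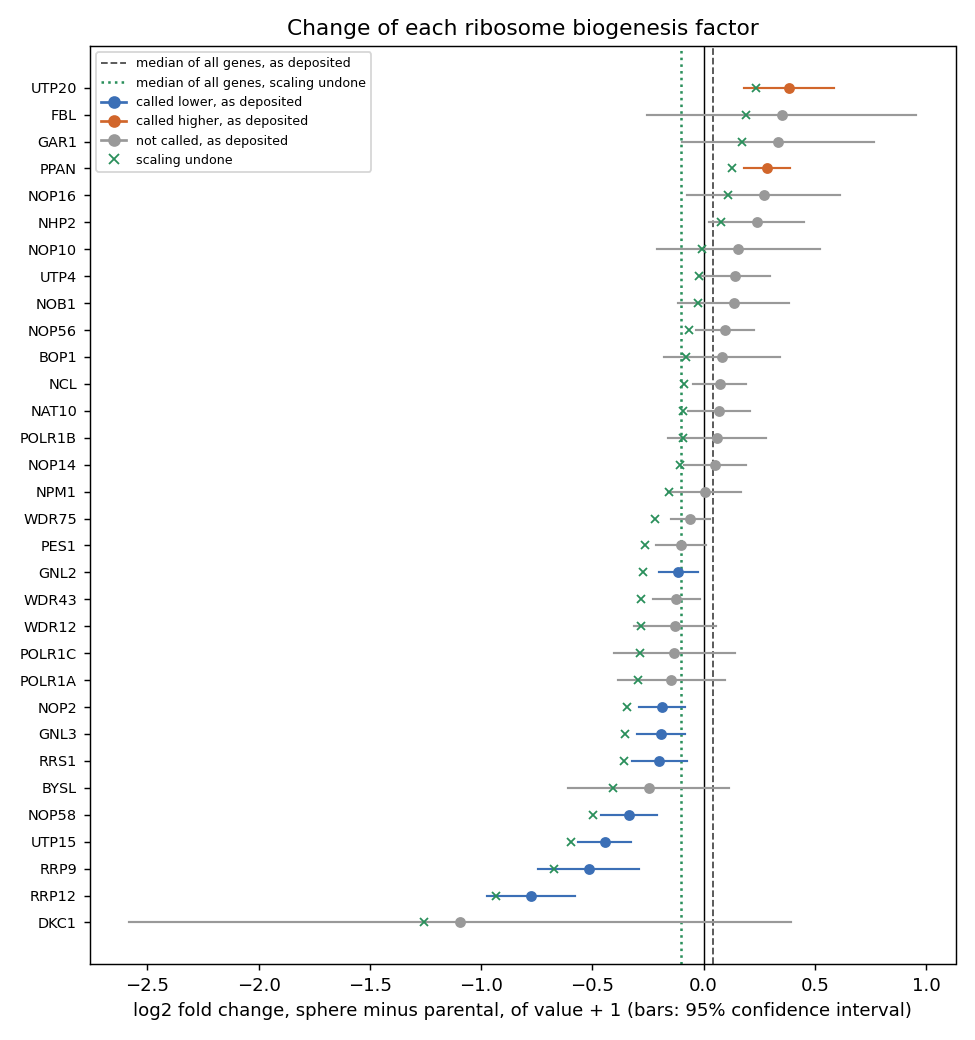
Log2 fold change of each member, sphere minus parental, on the log2(value + 1) scale; circles are values as deposited with 95% confidence intervals, blue where called lower, orange where called higher and grey where not called, and green crosses are values with the scaling undone. The crosses lie to the left of the circles for all members, as they do for the median of all genes, which moves from 0.04 to -0.10, and DKC1 has an interval from -2.58 to 0.39.

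Single parental libraries set several of these results. Parental 3 was the highest parental library for 23 of the 32 members and parental 2 the lowest for 22. After the scaling was undone, parental 2 was the lowest for 29 and sphere 2 the lowest sphere library for 27. The coefficient of variation among parental libraries had a median of 6.32% over members and ran from 0.341% for GNL2 to 93.9% for DKC1. Among sphere libraries it had a median of 3.93%, from 1.04% for NOP56 to 16.0% for GAR1. Over the 8607 tested genes within the members' range of levels, the medians were 6.18% and 4.66%. Without parental 3, 8 members rose (25.0%, against 26.6% of all genes in that fit) and 7 fell (21.9%, against 22.0%), as FBL, GAR1, NOB1, NOP10, NOP56 and UTP4 became higher in spheres and GNL2 lost its call. FBL then had a log2 fold change of 0.61 (limma adjusted p 0.0172) and GAR1 of 0.50 (limma adjusted p 0.0288).

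DKC1 turned on parental 2. Without that library its log2 fold change was -0.37 (SE 0.08, limma adjusted p 0.0185), a smaller difference that passed the test. By a rule set after its values were seen, 142 genes had at least 20 units in parental 2 and at least 3 times the value of both other parental libraries. DKC1 was the 1 member among them, and EXOSC1 the 1 other ribosome biogenesis factor. Parental 3 had 36 such genes, among them the other factor POLR3K at 91.4 units against 26.1 and 25.3 in parental 1 and 2, and sphere 2 had 58. None of these was a member, and the other 3 libraries had 0. MYC, in the same way, had 46.9, 261 and 79.1 units in parental 1 to 3 and 165, 167 and 168 in sphere 1 to 3. Parental 2 lay above all spheres and parental 1 and 3 below them. The limma adjusted p of MYC was 0.349 over all 6 libraries and 0.00501 without parental 2, at a log2 fold change of 1.44.

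The libraries that stand apart also hold transcripts of another cell type. Of 16 erythroid marker genes, 9 were in the table, and they summed to 0, 1910 and 1308 units in parental 1 to 3 and 1.24, 1225 and 0.312 in sphere 1 to 3. Of these 9, 6 were at or above 1 unit in parental 2, 8 in parental 3 and 9 in sphere 2, against 0 in each other library. All 8 squamous epithelial markers were at or above 1 unit in every library, with sums of 6927 to 7613 units in parental and 26770 to 28318 in sphere libraries; 6 of them were called higher and 2, CDH1 and EPCAM, lower. The 3 fibroblast markers in the table summed to 7.53 to 9.77 and 25.2 to 30.2 units, with LUM called higher and COL1A1 lower, and the 3 leukocyte markers to 15.03 to 17.1 and 28.9 to 29.5 units. Without parental 2, parental 3 and sphere 2, 5 members fell, against 17.0% of all genes in that fit, DKC1 among them at -0.25 (limma adjusted p 0.0415). There 3 members rose, UTP20, FBL and GAR1, against 23.3% of all genes. That fit has 1 parental library, which is assumed to vary like the spheres, and what part the erythroid transcripts have in any member's value was not tested.

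**Figure D3:**
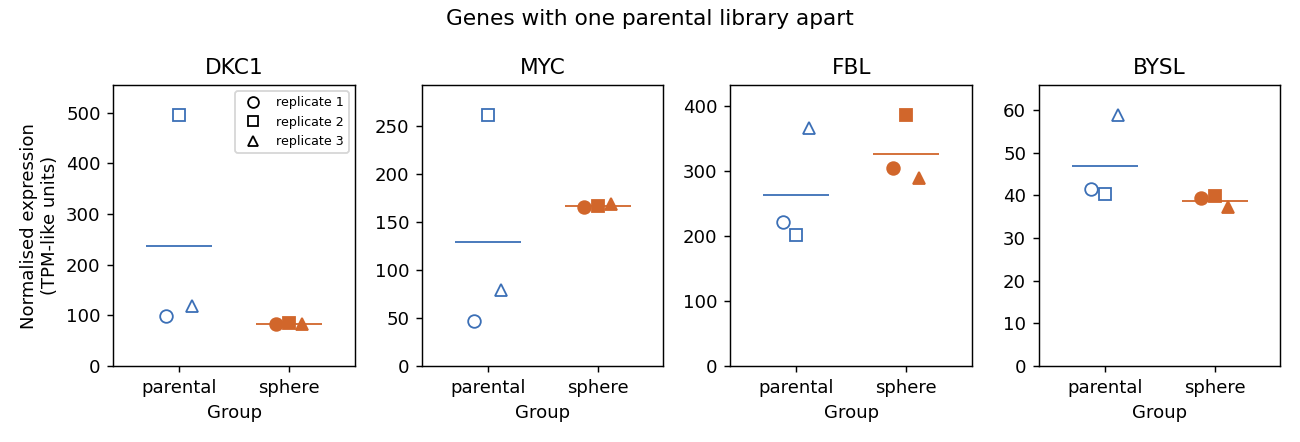
Normalised expression in TPM-like units of DKC1, MYC, FBL and BYSL by group; each symbol is a library, its shape the replicate number, and the line is the mean of the group. Parental 2 is at 495 units for DKC1 and 261 for MYC, parental 3 is at 365 units for FBL and 58.8 for BYSL, and the spheres of DKC1, MYC and BYSL lie close together.

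Other genes of ribosome biogenesis, from lists by textbook role, fell more often than they rose in number of calls. The lists were chosen with earlier results of these data known. Of 163 found and tested among 166 listed, 54 fell (33.1%, against 22.9% of all genes tested) and 20 rose (12.3%, against 25.8%), with a median log2 fold change of -0.11. The counts with the scaling undone were 62 falls (38.0%, against 25.1% of all genes) and 1 rise (15.2% of all genes rose). The other large subunit factors held 26 falls among 54 (48.1%) and 8 rises (14.8%), and a median of -0.16. RSL24D1, the placeholder protein of a ribosomal protein site, had 245, 240 and 244 units in parental 1 to 3 and 180, 166 and 171 in sphere 1 to 3 (-0.49, limma adjusted p 0.000306). RPF2, the partner of RRS1, had 39.0, 41.3 and 38.7 units in parental and 28.9, 28.4 and 27.2 in sphere libraries (-0.48, limma adjusted p 0.000415). Both partners of the 5S RNP step were thus lower in spheres. SENP3, a SUMO protease of the nucleolus, fell by 0.46 on the log2 scale and DDX24, a helicase, rose by 0.40, at limma adjusted p of 0.000352 and 0.000432, and the rise of DDX24 lost its call with the scaling undone at 0.0853.

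The other small subunit factors gave 10 falls among 48 (20.8%, against 22.9% of all genes) and 8 rises (16.7%, against 25.8%), with a median of -0.02. The scaling undone, they gave 14 falls (29.2%, against 25.1%) and 1 rise. DDX52, a helicase of the processome, had 25.7, 25.2 and 24.6 units in parental 1 to 3 and 15.5, 15.9 and 16.1 in sphere 1 to 3 (-0.63, limma adjusted p 0.000126). PNO1, the partner of NOB1, had 67.3, 68.6 and 71.9 units in parental and 47.5, 48.8 and 45.4 in sphere libraries (-0.54, limma adjusted p 0.000286). In neither gene did the groups overlap. DCAF13, another processome protein, fell by 0.32 (limma adjusted p 0.00122). DDX47 rose by 0.68, but from 0.873 to 1.01 units in parental to 2.02 to 2.27 in sphere libraries, a difference of about 1 step. None of the 11 other snoRNP factors was called by limma as deposited, and 1 had an unadjusted p below 0.05. The 4 with the smallest p among them were ZNHIT6, NUFIP1, NAF1 and RUVBL1, of which NUFIP1 passed the test with the scaling undone at 0.0243.

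Among other RNA polymerase genes and the nucleases, more genes were called lower than higher. Of the 12 other RNA polymerase I genes, 2 fell (16.7%, against 22.9% of all genes) and 1 rose (8.33%, against 25.8%). RRN3, the factor that makes RNA polymerase I ready to start, had 60.3, 58.5 and 62.4 units in parental 1 to 3 and 42.4, 40.9 and 40.3 in sphere 1 to 3 (-0.54, limma adjusted p 0.000207). Its groups did not overlap, while those of POLR1A, POLR1B and POLR1C did as deposited. Of the 12 other RNA polymerase I genes, TAF1A, a subunit of its promoter factor, also fell (-0.47, limma adjusted p 0.00871), POLR1F rose (0.25, limma adjusted p 0.00504, but 0.433 with the scaling undone) and TAF1B had 0.20 with 0.0711. The 21 RNA polymerase III genes make the 5S rRNA and tRNAs or control that. Of them 11 fell (52.4%, against 22.9% of all genes) and 1 rose (4.76%, against 25.8%), with a median of -0.26. POLR3E, POLR3C and POLR3F, subunits of the enzyme, fell by 0.55, 0.59 and 0.57 on the log2 scale, and MAF1, the repressor of the same enzyme, fell by 0.45. EXOSC6, a core subunit of the RNA exosome that trims rRNA ends, had 47.9, 49.4 and 45.3 units in parental and 16.5, 18.1 and 16.1 in sphere libraries (-1.44, limma adjusted p 2.4e-05). In the exosome and nuclease list 5 of 17 fell (29.4%, against 22.9% of all genes) and 2 rose (11.8%, against 25.8%). EXOSC9 and XRN2 fell by 0.26 and 0.16, and EXOSC10 rose by 0.23 (limma adjusted p 0.0302, but 0.645 with the scaling undone). With the scaling undone, 0 genes of these lists rose, against 15.2% of all genes. The falls were then 4 among other RNA polymerase I genes (33.3%), 12 among RNA polymerase III genes (57.1%) and 5 among nucleases (29.4%), against 25.1% of all genes.

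**Figure D4:**
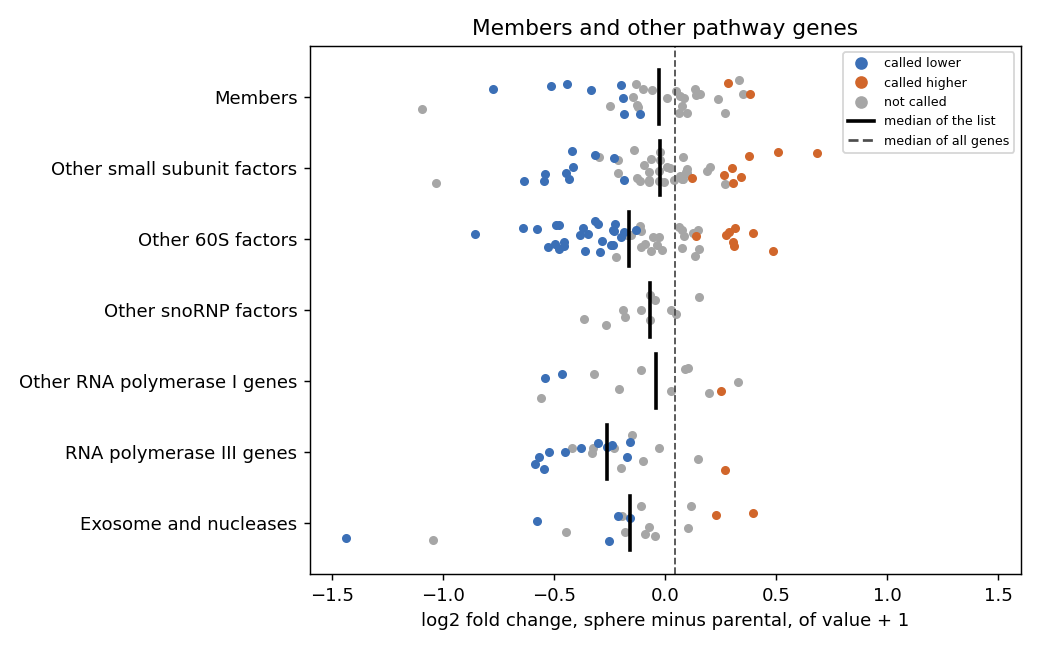
Log2 fold change, sphere minus parental, of the members and of 6 lists of other ribosome biogenesis genes; each dot is a gene, blue where called lower, orange where called higher and grey where not called, the thick bar is the median of the list and the dashed line that of all genes at 0.04. The bars lie at -0.16 for other large subunit factors and -0.26 for RNA polymerase III genes, and EXOSC6 is the dot at -1.44.

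Within the MYC network of partners and antagonists, changes went both ways. Of 11 genes in the table, 5 rose (45.5%, against 25.8% of all genes) and 2 fell (18.2%, against 22.9%). The counts with the scaling undone were 3 rises, against 15.2% of all genes, and 3 falls (27.3%, against 25.1%). MXI1, which pairs with MAX and represses at E-boxes, had 12.5, 10.1 and 9.42 units in parental 1 to 3 and 30.0, 30.6 and 29.2 in sphere 1 to 3 (1.42, limma adjusted p 0.00016). MXD1, a repressor of the same family, had 30.2, 29.2 and 27.4 units in parental and 13.4, 12.5 and 14.1 in sphere libraries (-1.06, limma adjusted p 8e-05). The 2 related repressors thus moved in opposite directions, each with its groups apart. MNT and MXD4, others of this kind, rose by 0.54 and 0.70, and MXD4 lost its call with the scaling undone at an adjusted p of 0.139. MYCL, a relative of MYC, stood at 2.64 to 3.03 units in parental and 5.71 to 6.20 in sphere libraries (0.87, limma adjusted p 0.000306). MLX rose by 0.28, with an adjusted p of 0.353 with the scaling undone, and its partner MLXIP fell by 0.29. MAX, the common partner, stood at 64.3 to 67.6 and 57.5 to 62.0 units (-0.13, limma adjusted p 0.0538), and fell with the scaling undone at 0.0226. MGA had 0.22 with an adjusted p of 0.0907 in limma. MXD3 had 5.16, 5.05 and 15.3 units in parental and 8.26, 6.86 and 7.06 in sphere libraries, so parental 3 stood apart there too (-0.02, limma adjusted p 0.973).

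RPL5 and RPL11, the ribosomal proteins that join the 5S rRNA in the 5S RNP, were not called. RPL5 had 1602, 2069 and 1889 units in parental 1 to 3 and 2171, 2033 and 1999.6 in sphere 1 to 3 (0.16, limma adjusted p 0.273). RPL11 had 1036, 1379.5 and 1489.96 units in parental and 1477, 1637 and 1403 in sphere libraries (0.22, limma adjusted p 0.275). In both genes parental 1 was the lowest library and the groups overlapped.

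Many members also host snoRNA genes, which their choice did not use. Of the 32 members, 8 (25.0%) held snoRNA genes of the same strand within their bounds in GENCODE 29, against 244 of 14878 tested genes with an annotation (1.64%). The 8 were WDR43, NOP58, NCL, GNL3, POLR1C, PPAN, NOP56 and DKC1, with 6 such genes in GNL3 and 5 in NOP56. Of these 8 hosts, 2 were called lower, NOP58 and GNL3, against 22.9% of all genes, and 1 higher, PPAN, against 25.8%. With so few hosts these calls are not a result about hosts. The snoRNAs themselves were not analysed here. Because the strand of the counting is not stated, reads of 16 members that overlap another annotated gene cannot be told apart from those of the partner where they overlap; among them are UTP15, GNL2, GNL3, PPAN and RRP12.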

How the data were processed

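RNA from 6 SCC4 libraries was read single-end on a BGISEQ machine, per the labels' protocols. HISAT, Bowtie2 and the mouse build GRCm38.p6 appear in the submitters' processing notes, although cells and identifiers are human; the sources used here do not give the human build, annotation, quantifier or strand setting. The deposited values, named as TPM by the authors, are treated as a signal, since column totals differ by library; depth is therefore unknown and no counting interval is given. After division by each step, 92.1% to 100.0% of values below 100 steps lay within 0.1 of a whole number, with totals of 997932 to 999379, as for rounded TPM, so no count model was run. Some values lie below 1 step, such as HBA1 at 0.244 and 0.061 units in sphere 1 and 3. A joint adjustment within groups could make the spread too small, and its effect was not tested.

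The filter kept genes that reached 1 unit in 3 libraries or more (15034 of 16536). They were fitted as log2(value + 1) by limma 3.58.1 in R 4.3.3, with 2 groups, a mean trend, two-sided tests and Benjamini-Hochberg adjustment over all of them. Calls are at an adjusted p below 0.05, and errors after ± are SDs. The procedure was tested on simulated data. All members, all MYC network genes and up to 4 genes with the smallest p from each other list are named; genes outside this rule, such as EXOSC1, were chosen after their values were seen. Part of what the rule picks is not reported here. The members and lists were chosen with earlier results of these data known. Motifs were searched in RefSeq windows, and gene overlaps read from GENCODE 29.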

Additional observations from a re-analysis of the deposited data

How the results depend on the processing

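Over 18 alternatives and 71 named genes, 1140 of 1276 gene results kept direction and side of the threshold, 78 lost a call, 27 gained one and 31 changed sign, none of them a called member. RRP12, RRP9, UTP15 and NOP58 kept their calls throughout; UTP20 and NOP2 lost them in 3 settings, PPAN in 4, GNL3 in 5, RRS1 in 8 and GNL2 in 14, counting also the setting added after the data were seen. Members higher and lower numbered 2 and 8 as reported. With the authors' scaling undone, 0 were higher, the member median was -0.19 and 1 other factor was higher. Without mitochondrially encoded genes after rescaling, 0 members were higher and 4 lower, the median was -0.13 and 2 other factors were higher. Without the 3 libraries with erythroid transcripts, 5 members were lower, and 11 other factors higher and 32 lower. Leaving out 1 library gave 2 to 8 members higher, 5 to 8 lower, 12 to 23 other factors higher and 43 to 57 lower, and member medians of -0.05 to 0.004; parental 3 gave the 8 rises and parental 1 the 5 falls. Without parental 2 and with the scaling undone, added after the data were seen, 0 members were higher and 13 lower, the median was -0.25, and 1 other factor was higher and 77 lower. Calls over all genes, both directions together, numbered 7315, and 5581 to 7667 under the alternatives. In the setting added after the data were seen they numbered 6043. How many of those 6043 were falls was not counted, so its 13 lower members are not a result about the members. The same limit holds for every other setting for which no share of all genes is given above. The cause of the changes between settings was not tested.

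Deviations of same-numbered libraries correlated at 0.33, 0.12 and -0.27, and those of different-numbered libraries at -0.47 to 0.34. Deviations within a group of 3 are not independent, so these values cannot decide whether replicate numbers pair the libraries. With the replicate block, 5 members were lower and 12 other factors higher.

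The sign changed, short of the threshold unless stated, in these results. With the scaling undone, the log2 fold change was -0.094 for POLR1B, -0.064 for NOP56, -0.0059 for NOP10, -0.089 for NCL, -0.16 for NPM1, -0.10 for NOP14, -0.019 for UTP4, -0.025 for NOB1, -0.092 for NAT10, -0.077 for BOP1 and -0.0027 for ZNHIT6. Without mitochondrially encoded genes it was -0.036 for POLR1B, -0.0034 for NOP56, -0.028 for NCL, -0.096 for NPM1, -0.047 for NOP14, -0.032 for NAT10 and -0.017 for BOP1. Quantile normalization gave -0.21 for NPM1, -0.011 for NOP14 and -0.042 for RPL5. Leaving out 1 library gave -0.0022 to 0.13 for POLR1B, -0.031 to 0.025 for NPM1, -0.0055 to 0.18 for BOP1 and -0.26 to 0.45 for MXD3, which without parental 3 passed the test at an adjusted p of 0.0142 in limma. Averaging sphere 1 and 3 gave -0.0023 for NPM1. MXD3 had 0.22 with array weights and 0.49 without the 3 erythroid libraries.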
